A study of Saccharomyces cerevisiae with 9 samples.

Results

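Hexose carriers and the glucose sensors of the plasma membrane were examined in stationary cultures of budding yeast, Saccharomyces cerevisiae strain W303. The list held 10 genes: the low-affinity carriers HXT1 and HXT3, the high-affinity carriers HXT2, HXT4, HXT6 and HXT7, the carrier HXT5, the galactose carrier GAL2, and the sensors SNF3 and RGT2. They were taken from the deposited tables by locus tag, with the symbol in the gene description as a check. Rows for 7 of the 10 were used, out of 5205 genes in the tables, and HXT3, HXT6 and HXT7 are not analysed here. All 7 passed the filter on low counts and were among the 5172 genes tested.

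RNA was sequenced from 9 libraries in 3 groups of 3 biological replicates: white colonies of the cdc13-K504E mutant (K504E-white), red colonies of the same mutant (K504E-red) and red colonies of the wild type (WT-red). All groups were W303 cultures held in the rich glucose medium YPD for 15 days in stationary phase with no dilution, and the libraries were enriched for poly(A) RNA. Cdc13 binds single-stranded telomeric DNA, and in this strain background a red colony colour comes from a block in adenine synthesis. White wild-type colonies are not among the samples, so in K504E-white against WT-red the mutation and the colour cannot be told apart.

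Yeast takes up glucose by facilitated diffusion through the Hxt carriers, which differ in affinity. Snf3, a sensor of low glucose, and Rgt2, a sensor of high glucose, are carrier-like proteins that signal rather than transport. Their signal leads to the breakdown of Mth1 and Std1, cofactors of the repressor Rgt1, and so releases the HXT promoters. In a second route the repressor Mig1, which the kinase Snf1 inhibits, shuts off the high-affinity carriers and many genes for other carbon sources when glucose is plentiful. HXT1 is known as the carrier gene induced by high glucose, whereas HXT2 and HXT4 are induced by low glucose.

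Total counts were 27388755 to 34634199 per library. No library was a copy of another: the chi-square statistic was 13.5 to 31.5 times its degrees of freedom in each of the 9 pairs within a group. CDC13 had 21.2 ± 0.507 CPM in K504E-white, 27.7 ± 5.18 CPM in K504E-red and 25.2 ± 2.15 CPM in WT-red (SD, n = 3 each), and gene counts do not show the mutated residue. CPM is the usual depth-scaled count, here of TMM-scaled libraries, and FPKM are the authors' values scaled for gene length and depth, used for levels between genes.

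The letters that separate the carriers, and those they share, bear on how far their counts can be told apart. The sequences below are from the S288C R64 reference of RefSeq, found by gene name, and not from the W303 contigs on which the authors counted. The stretch of 60 coding bases below is the middle of the 100-base window in which HXT7 is most like the counted part of HXT4, and capitals mark bases that differ from HXT4.
HXT4: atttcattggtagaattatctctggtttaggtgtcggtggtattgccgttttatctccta
HXT7: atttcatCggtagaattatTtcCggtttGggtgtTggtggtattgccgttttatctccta
HXT3: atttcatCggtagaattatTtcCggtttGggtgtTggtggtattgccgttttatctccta
HXT1: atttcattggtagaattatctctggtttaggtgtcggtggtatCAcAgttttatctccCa
HXT2: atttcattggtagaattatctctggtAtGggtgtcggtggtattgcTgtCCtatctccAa
HXT6 has the same letters as HXT7 here, and over their whole coding sequence of 1713 bases these 2 genes differ at 3 bases. In this stretch HXT7, HXT6 and HXT3 differ from HXT4 at 5 bases each, HXT1 at 4 and HXT2 at 6.

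HXT4 needs a limit on its level. Its row covered 1308 bases on W303 contig 228 (57143 to 58450, minus strand), against 1731 coding bases in S288C, and no gene lay beyond it on that contig. Its stop lay 310 bases from MSR1 both on the contig and in S288C, so the 423 bases lacking were those at the start of the gene. Every 100-base window of HXT6 and HXT7 differed from the counted part of HXT4 at 8 or more bases, every window of HXT3 at 7 or more and every window of HXT1 at 5 or more. How reads of these relatives were assigned is not given in the sources used here, so part of the HXT4 count could come from them, which was not tested.

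HXT1 and HXT5 share an identical run of 119 coding bases in S288C (bases 1207 to 1325 of HXT1 and 1270 to 1388 of HXT5), which is shown because reads inside it cannot be assigned to either gene.
HXT1 and HXT5: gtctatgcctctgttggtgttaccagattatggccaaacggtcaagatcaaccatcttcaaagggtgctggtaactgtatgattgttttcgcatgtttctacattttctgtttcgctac
The run is 6.7% of the length of the HXT1 row and 6.69% of the HXT5 row. No member's row overlapped another gene on its contig.

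The level of the members spanned a wide range. In WT-red, FPKM averaged 1299 ± 45.1 for HXT4, 256.9 ± 18.8 for HXT2, 137 ± 9.84 for HXT1, 28.5 ± 2.94 for HXT5, 23.0 ± 1.31 for SNF3, 21.7 ± 0.420 for RGT2 and 4.92 ± 0.736 for GAL2 (SD, n = 3). Neighbours in this order did not overlap between libraries, except SNF3 and RGT2. K504E-red had the same order, with no overlap between neighbours. In K504E-white the order differed at 2 genes: HXT1 stood below SNF3, HXT5 and RGT2 and above GAL2, and SNF3 stood above HXT5, again with no overlap between neighbours. Because HXT4 was counted on a shortened row that may hold reads of relatives, its place among the levels is less certain than those of the others.

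**Figure D1:**
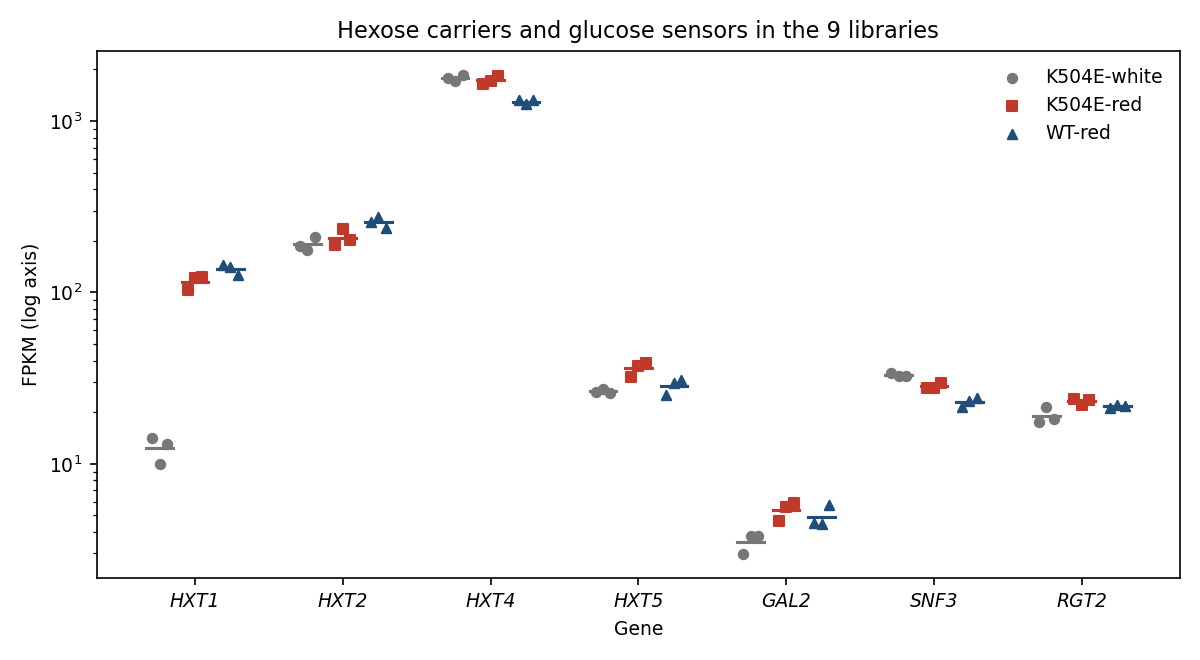
FPKM (log axis) of the 7 members in each of the 9 libraries, with K504E-white as grey circles, K504E-red as red squares and WT-red as blue triangles, and a line at each group mean. HXT1 lies at 9.95 to 14.1 FPKM in the K504E-white libraries and above 100 FPKM in all red ones, while the other members stay within the same order of magnitude in the 3 groups.

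HXT1 (YHR094C, W303 contig 18, 96521 to 98296, plus strand), the low-affinity carrier, was the member that changed most, and the change lay with the white colonies. It had 14.1, 9.95 and 13.0 FPKM in K504E-white, 103, 121 and 123 FPKM in K504E-red, and 145, 141 and 126 FPKM in WT-red. No library of K504E-white came near those of either red group, and the K504E-red libraries all lay below those of WT-red by a small margin. The mean CPM was 11.1 times lower in K504E-white than in WT-red and 9.43 times lower than in K504E-red. The log2 fold change was -3.47 (SE 0.104, adjusted p 1.93e-14) in K504E-white against WT-red and -3.24 (SE 0.103, adjusted p 4.11e-14) in K504E-white against K504E-red. These values, as all below, are from the quasi-likelihood test of edgeR with p adjusted over all genes after Benjamini and Hochberg. Of all 5172 genes, 5 fell further than HXT1 in K504E-white against WT-red, and 8 in K504E-white against K504E-red. In bulk RNA, fewer cells with HXT1 RNA and less HXT1 RNA per cell cannot be told apart.

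The difference of HXT1 between the red groups was small and near the threshold. It was -0.23 (SE 0.0909, adjusted p 0.0427 by edgeR) in K504E-red against WT-red. With K504E-red replicate 1 left out it was -0.16 (adjusted p 0.17 by edgeR). In other settings that ended the call its size stayed near the reported one: -0.23 (adjusted p 0.09) and -0.22 (adjusted p 0.111) without WT-red replicate 1 or 2, and -0.25 by limma on log2 FPKM with a pseudocount of 1 or 0.1 (adjusted p 0.085 and 0.0969).

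HXT2 (YMR011W, contig 164, 64752 to 66377, plus strand), a high-affinity carrier, was lower in both groups of the mutant. It had 186.5, 178 and 212 FPKM in K504E-white, 189, 234 and 203 FPKM in K504E-red, and 258.5, 275 and 237 FPKM in WT-red. All 6 mutant libraries lay below the 3 of WT-red, though K504E-red replicate 2 came close to WT-red replicate 3. The log2 fold change was -0.42 (SE 0.0765, adjusted p 0.000236) in K504E-white and -0.29 (SE 0.0765, adjusted p 0.00526) in K504E-red, each set against WT-red by edgeR. K504E-white and K504E-red differed by -0.13 (SE 0.0766) with an adjusted p of 0.163 by edgeR, which became 0.0433 when K504E-red replicate 1 was left out.

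HXT4 (YHR092C), which the deposited gene description calls low-affinity and which is usually grouped with the carriers induced by low glucose, was higher in both groups of the mutant. It had 1786, 1704 and 1862 FPKM in K504E-white, 1653, 1712 and 1824 FPKM in K504E-red, and 1331, 1248 and 1319 FPKM in WT-red. All mutant libraries lay above all wild-type ones, and the 2 colours of the mutant overlapped. The log2 fold change was 0.46 (SE 0.0558, adjusted p 2.58e-06) in K504E-white and 0.42 (SE 0.0558, adjusted p 9.37e-06) in K504E-red, each against WT-red, and 0.04 (SE 0.0556, adjusted p 0.618) between the colours, by edgeR. The rows of HXT2 and HXT4 thus moved in opposite directions against WT-red, although both genes are known to be induced by low glucose. The HXT4 row is shortened and may hold reads of relatives, whose part in its rise was not tested.

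HXT5 (YHR096C, contig 18, 92640 to 94418, plus strand), a carrier of moderate affinity known from slow growth and stationary phase, was highest in K504E-red. It had 26.4, 27.2 and 26.0 FPKM in K504E-white, 32.2, 37.1 and 39.0 FPKM in K504E-red, and 25.2, 29.8 and 30.6 FPKM in WT-red. The K504E-red libraries lay above all others, and those of K504E-white fell inside the range of WT-red. The log2 fold change was 0.35 (SE 0.0862, adjusted p 0.00293) for K504E-red over WT-red and -0.45 (SE 0.0863, adjusted p 0.000244) for K504E-white over K504E-red, by edgeR. Without WT-red replicate 1 the value for K504E-red over WT-red was 0.23 (adjusted p 0.0368). In K504E-white against WT-red it was -0.10 (SE 0.0866, adjusted p 0.353), and -0.22 (adjusted p 0.047 by edgeR) without WT-red replicate 1. Between the colours HXT5 fell beside HXT1, with which it shares the run of 119 bases: mean counts of HXT1 were 747 in K504E-white and 6241 in K504E-red, and those of HXT5 were 1611 and 1954. The part of shared reads in the difference of HXT5 was not tested.

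GAL2 (YLR081W, contig 62, 159525 to 161249, minus strand), which carries galactose and glucose and needs galactose for its induction, was close to the low end of the table. It had 2.98, 3.79 and 3.77 FPKM in K504E-white, 4.66, 5.62 and 5.94 FPKM in K504E-red, and 4.53, 4.46 and 5.77 FPKM in WT-red, from 178 to 336 counts per library. The K504E-white libraries lay below all red ones, and the 2 red groups overlapped. GAL2 was called lower in K504E-white than in K504E-red and fell by 0.63 on the log2 scale (SE 0.178, adjusted p 0.00621). Against WT-red it was -0.48 (SE 0.178, adjusted p 0.0338 by edgeR) in K504E-white, a call lost without WT-red replicate 3 (adjusted p 0.164) or K504E-white replicate 1 (0.102), and with limma on log2 FPKM (0.0556 and 0.0552). In K504E-red against WT-red it was 0.15 (SE 0.175, adjusted p 0.52).

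The sensors differed from each other. SNF3 (YDL194W, contig 101, 66419 to 69073, plus strand), the sensor of low glucose, had 33.9, 32.4 and 32.6 FPKM in K504E-white, 27.8, 27.7 and 29.6 FPKM in K504E-red, and 21.5, 23.3 and 24.1 FPKM in WT-red. The 3 groups did not overlap: the K504E-white libraries were highest and the WT-red libraries lowest. The log2 fold change of SNF3 was 0.52 (SE 0.0647, adjusted p 3.15e-06) in K504E-white and 0.32 (SE 0.0650, adjusted p 0.00071) in K504E-red, each against WT-red, and 0.21 (SE 0.0643, adjusted p 0.0108) between the colours, by edgeR.

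RGT2 (YDL138W, contig 103, 79785 to 82076, plus strand), the sensor of high glucose, had 17.5, 21.6 and 18.3 FPKM in K504E-white, 23.8, 22.2 and 23.7 FPKM in K504E-red, and 21.3, 22.1 and 21.7 FPKM in WT-red. K504E-white replicates 1 and 3 were the lowest of the 9 libraries, and replicate 2 lay within the range of WT-red. RGT2 was called lower in K504E-white than in K504E-red and fell by 0.29 on the log2 scale (SE 0.0819, adjusted p 0.00633). Its log2 fold change was 0.11 (SE 0.0817, adjusted p 0.293) for K504E-red over WT-red. For K504E-white over WT-red it was -0.18 (SE 0.0819, adjusted p 0.0816 by edgeR), and this comparison stood near the threshold: the adjusted p was 0.00588 without K504E-white replicate 2, 0.0433 and 0.0447 without K504E-red replicate 2 or 3, and 0.039 and 0.0386 with a looser or a stricter filter on low counts.

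Set against all genes, the number of members called was no finding about the list, and the size of the HXT1 change was what stood out. In K504E-red against WT-red, 5 of 7 members were called, 3 higher and 2 lower, where 47.5% of all genes were called, 25.8% higher and 21.7% lower. In K504E-white against WT-red, 2 were higher and 3 lower, where 46.8% of all genes were called, 23.3% higher and 23.5% lower. Between K504E-white and K504E-red, 1 was higher and 4 were lower, where 54.5% of all genes were called, 27.2% higher and 27.3% lower. The comparisons share libraries, since each group is in 2 of the 3 comparisons, so their results are not independent of each other. The median log2 fold change of the members was 0.15, -0.18 and -0.29 in these comparisons, in this order, against 0.03, -0.01 and -0.00426 over all genes tested. Libraries of the groups compared did not overlap in 6, 5 and 5 members, where this held for 54.6%, 56.1% and 61.9% of all genes. HXT1 was the member that changed by at least 1 on the log2 scale, in both comparisons of K504E-white and not between the red groups, and such changes were called in 3.54% of all genes in K504E-white against WT-red, 4.56% in K504E-white against K504E-red and 0.696% in K504E-red against WT-red.

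**Figure D2:**
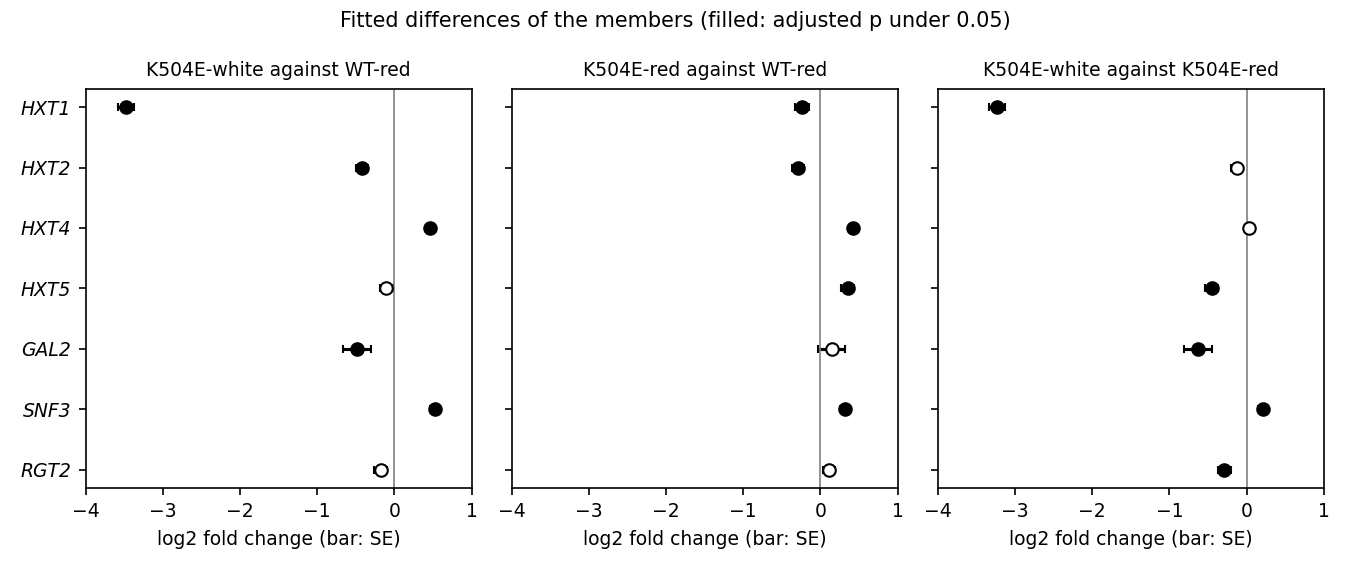
Log2 fold changes of the 7 members with their SE in the 3 comparisons, with filled points for an adjusted p under 0.05 by edgeR and open points otherwise. HXT1 stands at -3.47 and -3.24 in the comparisons of K504E-white, and every other point lies between -0.63 and 0.52.

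The balance of low- to high-affinity carriers was described per library as the FPKM of HXT1 over the summed FPKM of HXT2 and HXT4. HXT3, HXT6 and HXT7 are not analysed here, so this ratio and the shares below cover only part of each class. The ratio was 0.00713, 0.00529 and 0.00627 in K504E-white, 0.0558, 0.0622 and 0.0607 in K504E-red, and 0.0909, 0.0926 and 0.0810 in WT-red. On the log2 scale it averaged -7.34 ± 0.217 in K504E-white, -4.07 ± 0.0829 in K504E-red and -3.51 ± 0.105 in WT-red (SD, n = 3 each), with no overlap between groups and no test, since the genes were chosen with results known. The ratio of K504E-red to WT-red depended on HXT4, whose count is uncertain. The difference on the log2 scale was -0.565 with HXT2 and HXT4 below the line and 0.0534 with HXT2 alone, whereas for K504E-white against WT-red it was -3.83 and -3.07. With HXT4 set among the low-affinity carriers, as its description has it, all 3 differences turned positive, since HXT4 outweighs HXT1: they were 0.743 in K504E-white and 0.662 in K504E-red against WT-red, and 0.0804 between the colours. HXT1 made up 0.517% to 0.698% of the summed FPKM of the 5 carriers in K504E-white, 5.18% to 5.74% in K504E-red and 7.33% to 8.30% in WT-red. HXT4 made up 88.0% to 88.6%, 81.1% to 83.4% and 73.5% to 76.7% in the same groups.

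**Figure D3:**
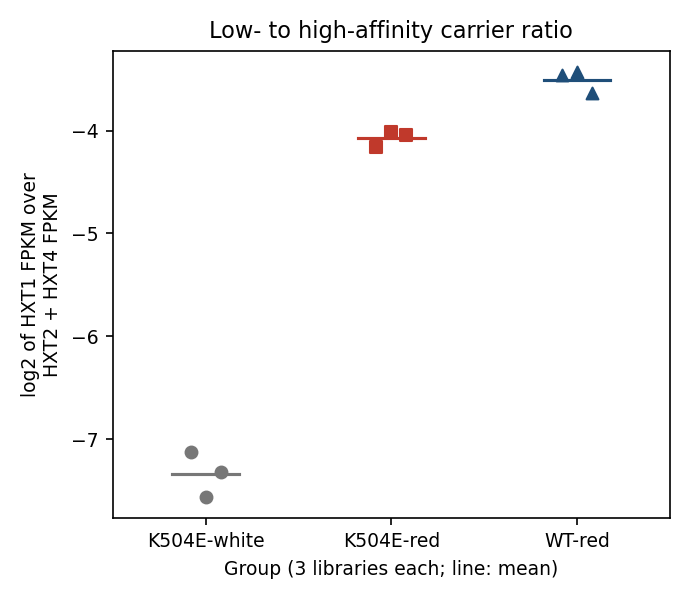
Log2 of the ratio of HXT1 FPKM to the summed FPKM of HXT2 and HXT4 in each library, with a line at each group mean. The K504E-white libraries lie at -7.56 to -7.13, those of K504E-red at -4.16 to -4.01 and those of WT-red at -3.63 to -3.43.

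The upstream sequence of the carriers was searched for the letters CGGANNA, the motif of the repressor Rgt1, on both strands of the 1000 bases before the start codon in S288C. The motif occurred 9 times before HXT3, 8 times before HXT1 and 4 times before HXT5. It occurred 3 times each before HXT2, HXT4, HXT6 and GAL2, 2 times before HXT7, and 0 times before SNF3 and RGT2. It occurred at least once before 66.4% of 6015 genes, and 8 or more times before 0.0333% of them. The motif was first described from HXT promoters, so its number there is not independent of the gene. Letters of Mig1 sites (GGGG preceded by CC, CT, GC or GT, both strands) occurred 4 times each before HXT2 and HXT4 and 3 times before HXT6. They occurred 2 times each before HXT1, HXT3, HXT7 and SNF3, 1 time before HXT5 and 0 times before GAL2 and RGT2. At least 1 such site lay before 41.8% of the genes, and none before the members overlapped a match to CGGANNA.

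The stretches of 120 bases that hold most matches to CGGANNA at least 200 bases before the start codon are shown for the 3 carriers with the highest levels in red colonies, on the coding strand, with the matches in capitals. They run from base 498 to base 379 before the start codon for HXT1, 470 to 351 for HXT2 and 493 to 374 for HXT4. HXT1 has 3 matches here, HXT2 has 2 and HXT4 has 1.
HXT1: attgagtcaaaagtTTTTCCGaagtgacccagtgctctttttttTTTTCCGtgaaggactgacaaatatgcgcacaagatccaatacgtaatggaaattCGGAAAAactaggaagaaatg
HXT2: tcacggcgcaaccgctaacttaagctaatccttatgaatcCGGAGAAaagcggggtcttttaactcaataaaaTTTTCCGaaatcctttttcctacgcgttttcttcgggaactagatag
HXT4: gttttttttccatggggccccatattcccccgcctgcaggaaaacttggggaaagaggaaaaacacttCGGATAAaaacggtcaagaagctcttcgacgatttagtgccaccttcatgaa
A match is a description of these letters in S288C and says nothing of binding in these cultures.

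The genes that relay the sensors' signal moved in both directions. Of the 5 genes found in this list, MTH1 and RGT1 were higher and STD1 lower in K504E-white against WT-red, with a median log2 fold change of 0.08 over the list; 3 of 5 is to be read against the 46.8% of all genes called. MTH1, a cofactor of Rgt1, had 199, 203 and 192 CPM in K504E-white, 213, 235 and 194 CPM in K504E-red, and 149, 150 and 153 CPM in WT-red. The mutant libraries all lay above the wild-type ones, with log2 fold changes of 0.39 (SE 0.0622) in K504E-white and 0.50 (SE 0.0623) in K504E-red against WT-red. STD1, the paralog of MTH1, had 58.4, 59.7 and 61.3 CPM in K504E-white, 75.2, 88.1 and 84.9 CPM in K504E-red, and 78.4, 78.7 and 75.8 CPM in WT-red. It fell in K504E-white by 0.38 (SE 0.0677) on the log2 scale against WT-red and by 0.47 (SE 0.0677) against K504E-red, so that MTH1 and STD1 moved in opposite directions in K504E-white against WT-red. RGT1, the repressor itself, rose by 0.43 (SE 0.0717) on the log2 scale in K504E-white against WT-red. In K504E-red it had 0.19 (SE 0.072, adjusted p 0.0349), and 0.13 (adjusted p 0.222) without WT-red replicate 1. That call also ended with upper quartile scaling, a looser or a stricter filter, or the 2 groups fitted alone (adjusted p 0.0589 to 0.0881 by edgeR). It ended with limma on log2 FPKM (adjusted p 0.0987 and 0.0972), and without WT-red replicate 3, any 1 K504E-red library, or K504E-white replicate 1 or 2. Between the colours RGT1 and YCK2, a kinase of the relay, were higher, whereas STD1 and GRR1, which marks Mth1 and Std1 for breakdown, were lower, GRR1 by 0.21 (SE 0.0701), where 54.5% of all genes were called. The call of YCK2 (0.12, SE 0.0492) ended without any K504E-red library or K504E-white replicate 1 or 3, and that of RGT1 (0.24, SE 0.0715) without K504E-white replicate 2. The call of GRR1 ended without K504E-red replicate 1 (-0.16, adjusted p 0.0856 by edgeR) or K504E-white replicate 3 (adjusted p 0.0515 by edgeR). It also ended with limma on log2 FPKM (adjusted p 0.0505 and 0.0502). Against WT-red, K504E-red had 2 of the 5 genes higher and 0 lower, where 47.5% of all genes were called, and 1 without any of the K504E-red libraries, K504E-white replicate 1 or 2, or WT-red replicate 1. Of the 4 calls between the colours, 2 were made without K504E-red replicate 1 or K504E-white replicate 3.

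In the Snf1 and Mig1 list of 16 genes, 6 were higher and 3 lower in K504E-white against WT-red, 6 and 0 in K504E-red against WT-red, and 3 higher and 5 lower between the colours, with medians of 0.11, 0.13 and 0.01. These counts lie near the shares of all genes called, which were 46.8%, 47.5% and 54.5%, so they say little about the list. The genes that fell in K504E-white against WT-red were MIG2, MIG3 and TOS3. MIG2, a repressor related to Mig1 whose gene is induced by glucose, had 28.7, 27.0 and 27.3 CPM in K504E-white, 50.8, 48.5 and 49.3 CPM in K504E-red, and 40.4, 45.2 and 43.0 CPM in WT-red. The white libraries lay below all red ones, and the log2 fold change of MIG2 was -0.63 (SE 0.0796) against WT-red and -0.84 (SE 0.0797) against K504E-red. MIG3, a further relative of Mig1, had -0.56 (SE 0.154) and -0.96 (SE 0.153) in the same comparisons, and TOS3, a kinase that activates Snf1, had -0.82 (SE 0.114) and -0.97 (SE 0.114). In K504E-red against WT-red MIG3 had 0.41 (SE 0.15, adjusted p 0.0344 by edgeR). That call ended with a looser or a stricter filter on low counts (adjusted p 0.0555 and 0.0557 by edgeR). It also ended without any WT-red library, K504E-red replicate 2 (0.25, adjusted p 0.232) or 3, or K504E-white replicate 3. Between the colours CYC8, part of the corepressor that Mig1 and Rgt1 recruit, rose by 0.45 (SE 0.0555). MIG1 was higher in both groups of the mutant, with log2 fold changes of 0.50 (SE 0.0712) in K504E-white and 0.47 (SE 0.0713) in K504E-red against WT-red.

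Genes for other carbon sources, which glucose represses, included the largest rises of these lists in K504E-white against WT-red, those of JEN1, SUC2 and CAT8. Of 12 such genes found, 9 were higher and 0 lower in K504E-white against WT-red, where 23.3% of all genes were called higher and 23.5% lower, with a median log2 fold change of 0.59. With single libraries left out, 7 to 10 were called. The list was chosen with earlier results of these data known, so its count is a description and no test of the list. JEN1, the carrier of lactate and pyruvate, had 95.3, 78.5 and 73.2 CPM in K504E-white, 24.6, 25.5 and 23.4 CPM in K504E-red, and 22.0, 24.9 and 27.2 CPM in WT-red. Its red groups overlapped and the white libraries lay far above them, with a log2 fold change of 1.74 (SE 0.103) against WT-red and 1.75 (SE 0.104) against K504E-red. SUC2, the secreted invertase that splits sucrose, had 671.5, 746 and 688.5 CPM in K504E-white, 234, 207.5 and 185 CPM in K504E-red, and 245, 320 and 334.5 CPM in WT-red. It rose in K504E-white by 1.23 (SE 0.0960) on the log2 scale against WT-red and fell in K504E-red by 0.52 (SE 0.0958) (adjusted p 1.03e-08 and 0.000261). CAT8, an activator of genes for growth on other carbon sources, rose by 1.15 (SE 0.108) and FBP1, a gluconeogenic enzyme, by 0.81 (SE 0.176) in K504E-white against WT-red. The 3 genes not called in that comparison were PCK1, ADH2 and SIP4. Their log2 fold changes were 0.25 (SE 0.136), -0.21 (SE 0.0992) and 0.10 (SE 0.161), with adjusted p of 0.146, 0.091 and 0.643 by edgeR.

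Between the colours, 6 of the 12 were higher and 2 lower, where 27.2% of all genes were higher and 27.3% lower, with a median log2 fold change of 0.31. The 2 that fell were SIP4 (-0.45, SE 0.159, adjusted p 0.0229 by edgeR) and ADH2 (-0.39, SE 0.0991, adjusted p 0.00267 by edgeR). The other 4 were not called. In K504E-red against WT-red, 5 were higher and 1 lower, where 25.8% of all genes were higher and 21.7% lower, with a median of 0.23. SIP4, an activator of genes for other carbon sources, had 12.7, 13.3 and 19.7 CPM in K504E-red and 10.5, 10.8 and 9.92 CPM in WT-red. Its log2 fold change was 0.55 (SE 0.16, adjusted p 0.00901), and 0.29 (adjusted p 0.133) without K504E-red replicate 3, the highest library. ADR1, a further activator, had 0.50 (SE 0.105), and 0.31 (adjusted p 0.0133) without K504E-red replicate 2. MLS1, a malate synthase, had 0.49 (SE 0.141), a call that ended without K504E-red replicate 3 (0.35, adjusted p 0.077) or WT-red replicate 1 (0.38, adjusted p 0.0554). Of these calls, 3 were made without K504E-red replicate 3 or WT-red replicate 1.

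**Figure D4:**
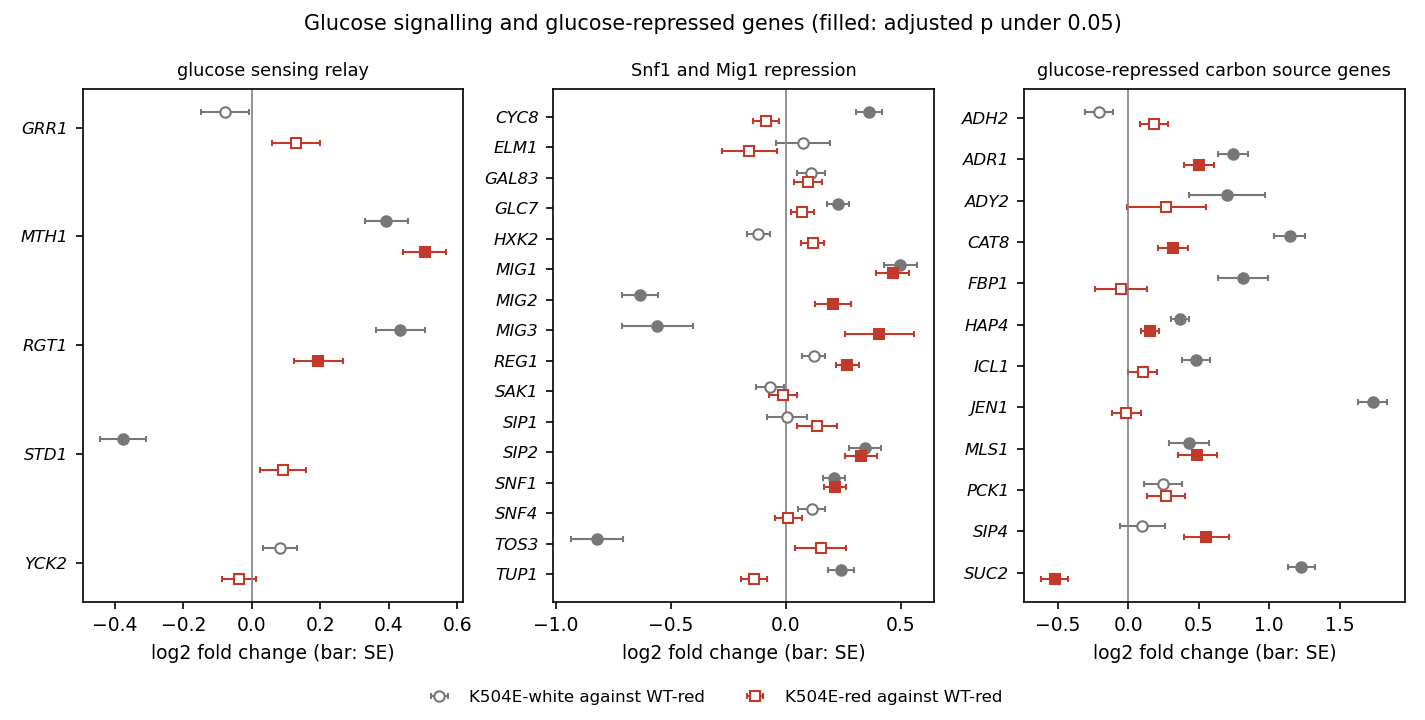
Log2 fold changes with SE of every gene found in the lists of the glucose sensing relay, of Snf1 and Mig1 repression and of glucose-repressed carbon source genes, for K504E-white (grey circles) and K504E-red (red squares) against WT-red; filled points have an adjusted p under 0.05 by edgeR. JEN1, SUC2 and CAT8 lie above 1 in K504E-white. The genes called lower in K504E-white, STD1, MIG2, MIG3 and TOS3, lie above 0 in K504E-red. There STD1 and TOS3 were not called, and the call of MIG3 depended on the filter and on single libraries.

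Of the enzymes that phosphorylate glucose after uptake, HXK1, GLK1 and EMI2 were higher in each group of the mutant against WT-red, and HXK2 was not called. The share of all genes called higher was 23.3% in K504E-white and 25.8% in K504E-red. HXK2, the main hexokinase of growth on glucose, stood on the log2 scale at -0.12 (SE 0.0509, adjusted p 0.0628) in K504E-white and 0.12 (SE 0.0509, adjusted p 0.0684) in K504E-red. HXK1, a hexokinase repressed by glucose, had 7787 ± 99.1 CPM in K504E-white, 6944 ± 514 CPM in K504E-red and 4477 ± 382 CPM in WT-red (SD, n = 3 each). Against WT-red, HXK1 had a log2 fold change of 0.80 (SE 0.0670) in K504E-white and 0.63 (SE 0.0668) in K504E-red. GLK1, a glucokinase, and EMI2, its paralog, rose by 0.42 (SE 0.0588) and 0.47 (SE 0.0611) in K504E-white and by 0.54 (SE 0.0589) and 0.50 (SE 0.0611) in K504E-red. Between the colours HXK2 fell by 0.24 (SE 0.0510) on the log2 scale and HXK1 had 0.17 (SE 0.0666, adjusted p 0.0440 by edgeR), and 1 of these calls was left without any K504E-white library or without K504E-red replicate 2 or 3.

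Other sugar carriers were found in 9 of 17 cases. In K504E-white against WT-red, 3 were higher and 1 lower, where 46.8% of all genes were called, with a median log2 fold change of -0.02. MAL11 and MAL31, which carry maltose, rose by 0.75 (SE 0.0639) and 0.63 (SE 0.0751) on the log2 scale. Whether reads were shared between copies of such genes was not tested. STL1, a glycerol carrier of the same family, fell by 0.63 (SE 0.132). Between the colours 2 were higher and 5 lower, where 54.5% of all genes were called, and 4 were called in all without K504E-white replicate 3. HXT10, a carrier with few counts, had 1.34, 0.989 and 1.96 CPM in K504E-white, 4.27, 2.60 and 4.31 CPM in K504E-red, and 2.08, 2.00 and 2.67 CPM in WT-red, and -1.39 on the log2 scale between the colours (SE 0.317, adjusted p 0.00126). HXT14, which also had few counts, had 0.988, 0.64 and 0.695 CPM in K504E-white, 1.41, 2.23 and 1.20 CPM in K504E-red, and 1.06, 1.22 and 1.74 CPM in WT-red. Between the colours its log2 fold change was -1.05 (SE 0.405, adjusted p 0.0368), a call that ended without K504E-red replicate 2 (-0.75, adjusted p 0.182) or K504E-white replicate 2 or 3 (adjusted p 0.104 and 0.0925), and with limma (adjusted p 0.199 and 0.2). In K504E-red against WT-red, 4 were higher and 0 lower, where 47.5% of all genes were called, and 2 were called without WT-red replicate 1.

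Of 6 genes for the ubiquitination of carriers, 2 were higher and 2 lower in K504E-white against WT-red, where 46.8% of all genes were called. CSR2, an adaptor of the ubiquitin ligase Rsp5 that directs the removal of high-affinity carriers, had 104, 108 and 102 CPM in K504E-white, 57.2, 55.1 and 59.6 CPM in K504E-red, and 39.7, 48.9 and 54.5 CPM in WT-red. CSR2 rose by 1.13 (SE 0.0886) on the log2 scale in K504E-white against WT-red and by 0.87 (SE 0.0879) against K504E-red. ROD1, ROG3 and BUL1, further adaptors of Rsp5, fell by 0.51 (SE 0.0667), 0.67 (SE 0.101) and 0.49 (SE 0.0629) between the colours, where 1 gene of the list was higher and 3 were lower, against 54.5% of all genes called. In K504E-red against WT-red 5 were higher and 1 lower, against 47.5% of all genes called, and 3 were called without K504E-red replicate 2 or WT-red replicate 1. When K504E-white replicate 2 was left out, 2 were called in K504E-white against WT-red. The calls lost were those of RSP5 (0.14, SE 0.0515, adjusted p 0.0373 by edgeR) and ROD1 (-0.19, SE 0.0668, adjusted p 0.0267 by edgeR). That of RSP5 also ended without K504E-white replicate 1 or 3, with upper quartile scaling, and with a looser or a stricter filter on low counts. That of ROD1 also ended without WT-red replicate 3.

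Of the 7 galactose genes, 2 were higher and 1 lower in K504E-white against WT-red, 2 and 0 in K504E-red against WT-red, and 1 was higher and 2 were lower between the colours. The shares of all genes called were 46.8%, 47.5% and 54.5%, and 3, 2 and 3 of 7 are no larger shares than these. PGM2, a phosphoglucomutase, rose by 0.55 (SE 0.0778) in K504E-white and by 0.40 (SE 0.0777) in K504E-red against WT-red. GAL10 had 0.67 (SE 0.217, adjusted p 0.0177 by edgeR) in K504E-white against WT-red, and 0.40 (adjusted p 0.124) without WT-red replicate 1. Between the colours GAL10 had 0.55 (SE 0.217, adjusted p 0.0392) and GAL7 had -0.67 (SE 0.251, adjusted p 0.0316). Both of these calls ended in several fits with a single library left out. GAL80, the repressor of the pathway, fell by 0.37 (SE 0.0729) in K504E-white against WT-red and by 0.56 (SE 0.0729) against K504E-red on the log2 scale. In K504E-red against WT-red, 1 was called without K504E-red replicate 2 or 3, K504E-white replicate 1 or 3, or WT-red replicate 1. Between the colours, 1 was called without K504E-red replicate 3 or K504E-white replicate 2 or 3.

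HXT1 was the member with the widest span of group means, 3.48 on the log2 CPM scale, and the genes whose levels followed it most closely over the 9 libraries were PDR16, PGA3, MRI1, DRE2 and RPN12. Their Pearson correlations with HXT1 were 0.995, 0.994, 0.993, 0.993 and 0.992, the highest among 4875 genes with a mean of at least 10 CPM. The 9 libraries fall into 3 groups, so these values mainly record low levels in K504E-white and are a description. DRE2, an iron-sulfur protein of cytosolic cluster assembly, had 219.7 ± 4.30 CPM in K504E-white, 503 ± 10.4 CPM in K504E-red and 532 ± 14.4 CPM in WT-red (SD, n = 3 each), a smaller difference than that of HXT1.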

How the data were processed

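The deposited counts are whole numbers per gene without normalization, and the FPKM values are the authors', scaled for gene length and for a library total of 0.986 to 1.03 times the sum of counts, from the values. Per the file headers, positions refer to W303 contigs. Aligner, counter and use of strand are not given in the sources used here. Gene length is in bases, per the file headers. Symbols came from RefSeq S288C R64 by locus tag.

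Genes were filtered with filterByExpr (33 of 5205 removed), scaled with TMM and tested with edgeR 4.0.16 in R 4.3.3 (quasi-likelihood, two-sided, all 9 libraries in 1 model with group as the term, Benjamini-Hochberg adjustment over all genes, threshold 0.05); SE came from the F statistic. DESeq2 1.42.0, limma 3.58.1 on log2 FPKM (pseudocount 1 or 0.1), other scalings and filters, fits of the groups compared alone, a replicate block and omission of each library were alternatives. Scripts were tested on simulated data. All members are named; of the other lists, every called gene with a log2 change of at least 1, and examples from the up to 4 largest called changes per list and comparison. ADH2 was also named, as a gene of its list called lower between the colours, and PCK1, as a gene of the same list that was not called. Members and lists were chosen with earlier results of these data known.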

Additional observations from a re-analysis of the deposited data

Results flagged for a closer look

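The difference from WT-red was not the same in the colours of the mutant for 5 members, as tested by edgeR in K504E-white against K504E-red. The log2 fold change was -3.24 for HXT1, -0.45 for HXT5, -0.63 for GAL2, 0.21 for SNF3 and -0.29 for RGT2. The share of all genes called in that comparison was 54.5%, so that 5 of 7 is near the share of any genes.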

How the results depend on the processing

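Of 378 values from alternatives of the 21 member fold changes, 361 kept their direction and their side of the threshold, 10 lost the call, 7 gained it and 0 of the called values changed sign. The same-numbered replicates did not deviate together (correlations of -0.11 to 0.0274 over 9 pairs, 0 over 0.1). The replicate block left 5 members called in both comparisons of K504E-white and 4 in K504E-red against WT-red, where the adjusted p of HXT1 became 0.0514 by edgeR; it changed no other member's call. With single libraries left out, 4 to 5 members were called in K504E-red against WT-red, 4 to 6 in K504E-white against WT-red and 5 to 6 between the colours. Over the other lists together, 29 genes were called in K504E-red against WT-red, and 19 to 29 with single libraries left out, the lowest without WT-red replicate 1. Alternatives chosen after seeing the data changed the carrier ratio. The log2 difference for K504E-red against WT-red was -0.565 as reported and 0.0534 with HXT4 left out, and for K504E-white against WT-red it was -3.83 and -3.07. With HXT4 among the low-affinity carriers it was 0.743 for K504E-white and 0.662 for K504E-red over WT-red, and 0.0804 between the colours. With single libraries left out, the difference as reported ranged from -0.625 to -0.518 for K504E-red over WT-red, from -3.93 to -3.72 for K504E-white over WT-red and from -3.37 to -3.15 between the colours. Adding HXT6 and HXT7 into 1 row was not run, since these genes are not analysed here, and leaving them out of the ratio changed nothing for the same reason. HXT10, HXT14, GAL2 and GAL7 rest on few counts.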
